A study of Drosophila melanogaster with 6 samples.

Results

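Mitochondria carry their own ribosome, the mitoribosome, which translates the few mRNAs encoded by the mitochondrial genome. Its ribosomal RNAs, a large one and a small one, are made inside the organelle, whereas its proteins are encoded in the nucleus, translated in the cytosol and imported. In Drosophila the genes for these proteins are named mRpL for the large subunit, which holds the peptidyl-transferase centre, and mRpS for the small subunit, which decodes the mRNA. Many of the proteins have bacterial counterparts and others are found only in mitochondria.

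The genes described are all rows of the deposited expression table whose FlyBase identifier maps, in the dm6 gene annotation, to a symbol of mRpL or mRpS followed by a digit. There were 71 such genes among 17558, of which 47 belong to the large subunit and 24 to the small subunit by symbol. The annotation holds 73 such symbols, and mRpS5 and mRpS34 were not analysed here. The level of 70 members reached the minimum for testing, an FPKM (fragments per kilobase of gene, scaled by library depth) of 1 or more in 3 or more of the 6 libraries. The remaining member, mRpL53, was listed at 0 in every library.

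Levels were measured by RNA-seq of poly(A)-selected RNA. The flies (Drosophila melanogaster) were adult males injected 12 h earlier with M. luteus (Micrococcus luteus), which is a Gram-positive bacterium. The overexpressing group (3 libraries; strain Gal80ts; Tub> NANPI) expressed the long noncoding RNA CR33942, called NANPI in the series. The control group (3 libraries; strain Gal80ts; Tub-Gal4/P{CaryP}attP40) carried the driver over an attP40 landing-site chromosome. Gal80ts is a heat-sensitive repressor of the Gal4 activator, and Tub-Gal4 expresses Gal4 from a tubulin promoter in most or all tissues. All flies of both groups were infected, so there is no uninfected level to compare with. Strain and overexpression differ together and cannot be told apart. Neither the number of flies in a library nor the use of separate fly pools is stated in the labels. The p-values thus measure spread between libraries that may be technical replicates.

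CR33942 averaged 568 ± 18.8 FPKM in overexpressing and 19.1 ± 0.423 FPKM in control libraries (SD, n = 3 each). Whole reads recovered from the FPKM values came to between 15407696 and 17551534 per overexpressing library and between 15084193 and 16935563 per control library. Across the transcriptome, limma called 274 of 12326 tested genes at a Benjamini-Hochberg adjusted p under 0.05, of which 104 were higher and 170 lower in overexpressing libraries. Overexpressing replicate 2 lay at -17.1 on the second principal component, beside 8.12 and 6.63 for its group, and 431 genes were called without it. Leaving out any other single library gave between 70 and 122 calls.

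None of the 70 tested mitoribosomal protein genes was called different between overexpressing and control flies. Of the large subunit genes, 0 of 46 were called by limma, and of the small subunit genes 0 of 24, where the background share of called genes was 2.22%. By direction, 0 members were called higher, against a background of 0.844%, and 0 lower, against 1.38%. At an unadjusted p under 0.05 there were 0 large subunit and 2 small subunit genes, mRpS14 and mRpS21, or 2.86% of the members, against 15.7% of all tested genes. No member was called in any of 14 other fits, including limma-voom on the recovered reads, where the background was 3.56%, and limma without overexpressing replicate 2, where it was 3.54%. One of those fits, without X-linked genes, left out the 11 X-linked members, among them mRpS14. The smallest adjusted p of a member was 0.210 in the limma test and 0.159 over those fits, in both cases for mRpS14.

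Estimated changes of the members were small, with the following intervals. On the log2(FPKM + 1) scale the changes of the members lay between -0.39 (mRpS24) and 0.25 (mRpS28). Large subunit genes had a median change of -0.03, with 18 above and 28 below 0. Small subunit genes had a median change of 0.02, with 14 above and 10 below 0. Over all tested genes the median was 0.00, with 6248 above and 6078 below 0. For 57 of the 70 members, 81.4%, the 95% interval of the change lay within 1.25-fold in either direction, and for 69 of them it lay within 1.5-fold, the exception being mRpS24. Of 6087 tested genes within the range of member levels, 67.7% had an interval within 1.25-fold. The share depends on both the estimate and its error. The median absolute log2 change was 0.053 for members and 0.081 for the genes within their range of levels, and the median SE was 0.079 for members and 0.073 for those genes. The intervals are not adjusted for the number of genes. In whole flies, fewer cells of a type and less RNA per cell cannot be told apart.

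**Figure D1:**
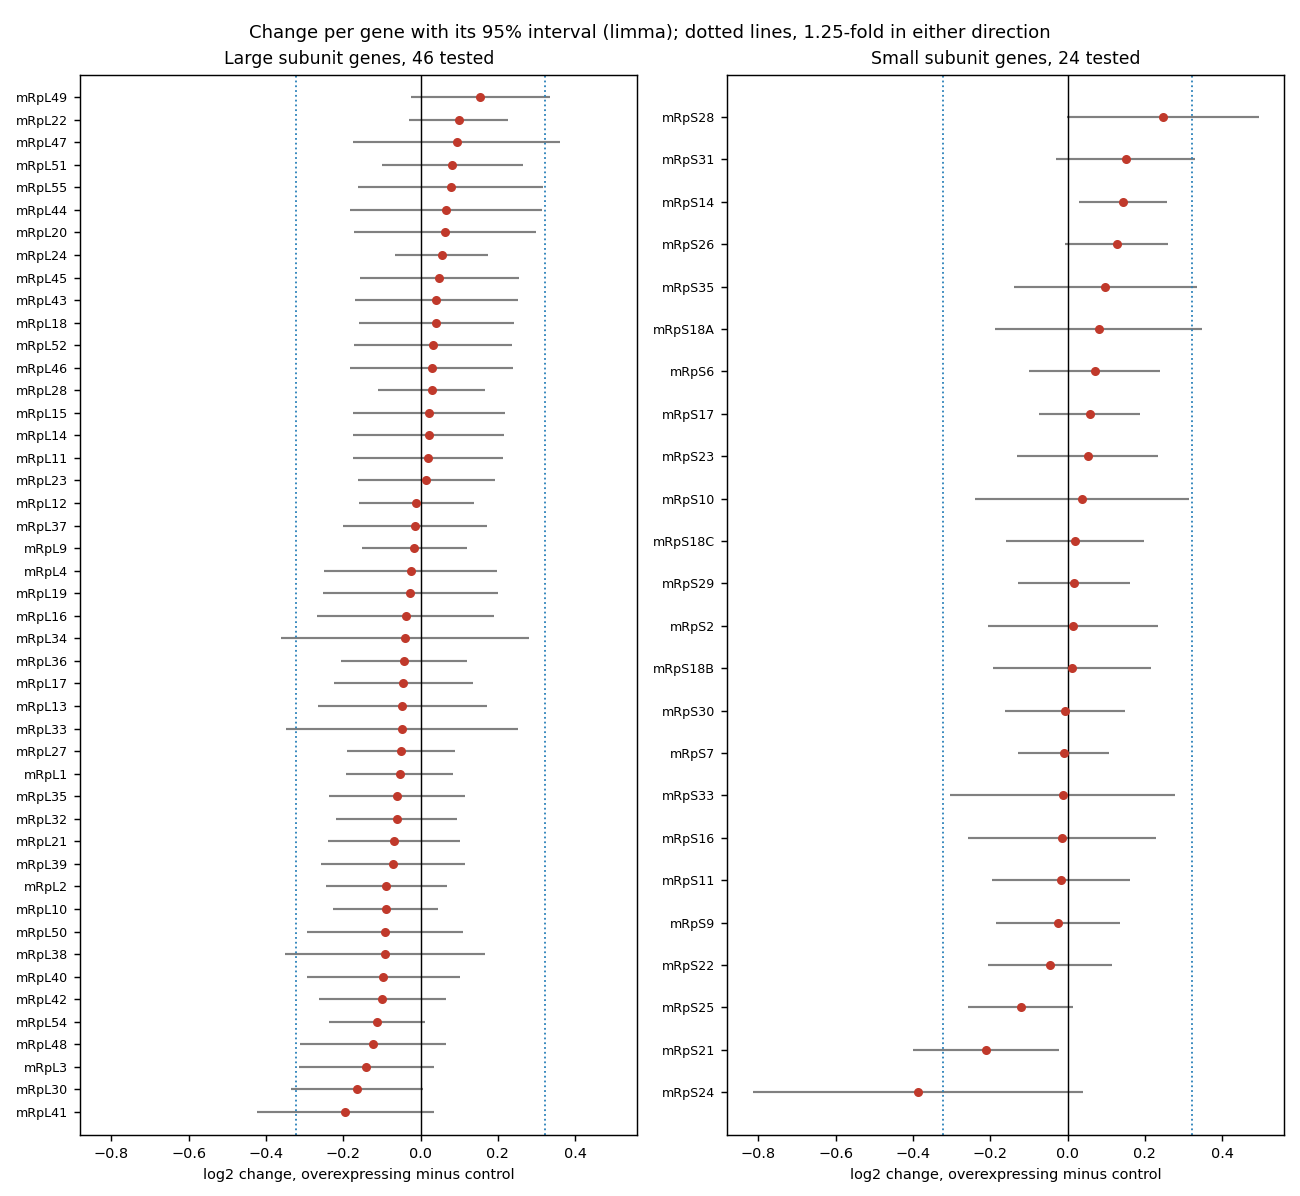
Change of each tested member (x axis, log2 change on the log2(FPKM + 1) scale, overexpressing minus control; points, limma estimates; bars, 95% intervals) for 46 large subunit genes at left and 24 small subunit genes at right, with dotted lines at 1.25-fold. The intervals of 57 of the 70 genes lie between the dotted lines, and mRpS24 has the widest.

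Summed over each subunit, the groups overlapped. Large subunit genes summed to 996, 1005 and 1015 FPKM in the overexpressing libraries and to 1001, 1041 and 1012 FPKM in the control libraries, or 1005 ± 9.71 and 1018 ± 20.5 FPKM (SD, n = 3 each). Small subunit genes summed to 559, 545 and 529 FPKM in the overexpressing libraries and to 538, 534 and 541 FPKM in the control libraries, or 544 ± 15.2 and 538 ± 3.68 FPKM. The lowest small subunit sum was in overexpressing replicate 3 and the highest in overexpressing replicate 1. The ratio of the large subunit sum to the small subunit sum was 1.85 ± 0.0694 in overexpressing and 1.89 ± 0.0493 in control libraries, a difference smaller than the spread within either group. Members held 0.224% of all FPKM in overexpressing and 0.221% in control libraries.

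**Figure D2:**
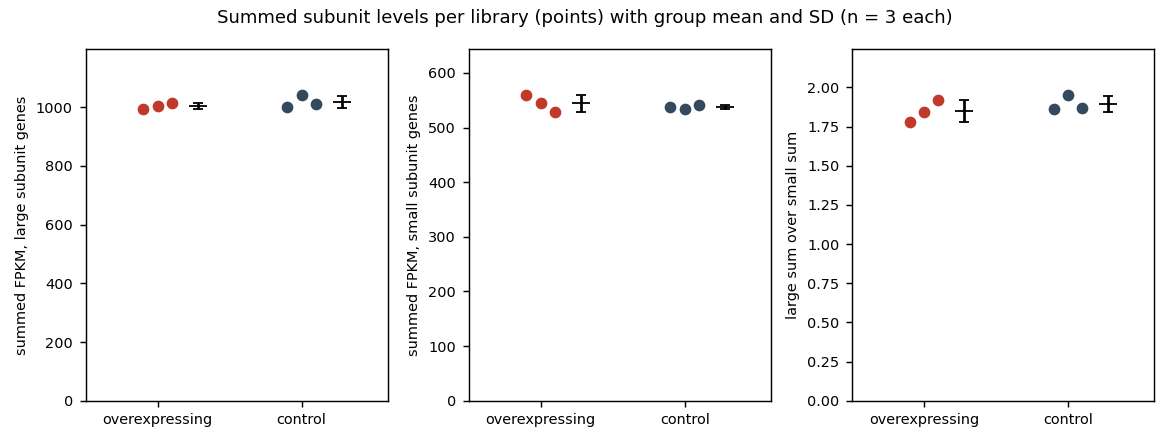
Summed FPKM of large subunit genes, summed FPKM of small subunit genes and their ratio (y axes, all from 0), one point per library, with the group mean and SD (n = 3 each). The large subunit means are 1005 FPKM in overexpressing and 1018 FPKM in control libraries, and the points of the groups overlap in each panel.

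FPKM is a level per kilobase, so the members can be ranked against each other, with a limit for shared exons. How reads in exon bases shared with another gene were counted was not given. Of protein-coding genes sharing at least 90% of exon bases, 84.2% (same strand) and 78.3% (other strand) were at 0 in every library. Of those sharing under 10% with either strand, 2.04% were at 0. The ranks of members with large shares, such as mRpS24 and mRpS21, are therefore uncertain. Levels covered a narrow range for nuclear genes. The 10th and 90th percentiles of the mean over all 6 libraries were 13.6 and 30.4 FPKM for members, a 2.23-fold span, against 1.97 and 70.3 FPKM for all tested genes, a 35.8-fold span. Of the 70 tested members, 62 lay between 10 and 35 FPKM. The median member level was 19.5 FPKM in the large subunit and 21.4 FPKM in the small subunit.

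The most abundant member was mRpL28, whose bacterial counterpart is a component of the large subunit. It had 66.0, 61.4 and 65.7 FPKM in the overexpressing libraries and 60.7, 67.0 and 61.5 FPKM in the control libraries, and the groups overlapped. Next came mRpS7, which in bacterial ribosomes helps to organise the head of the small subunit, at 43.3 ± 1.24 FPKM in overexpressing and 43.6 ± 1.08 FPKM in control libraries. mRpL42, a protein of mitochondria without a bacterial counterpart, was at 41.5 ± 3.07 FPKM in overexpressing and 44.4 ± 2.31 FPKM in control libraries. mRpL12, the counterpart of the stalk protein that recruits translation factors to the ribosome, was at 40.3 ± 2.93 FPKM in overexpressing and 40.6 ± 0.426 FPKM in control libraries. mRpL28 stood above all other members in every library. The range of mRpL42 over the 6 libraries overlapped those of mRpS7 and mRpL12, whereas the lowest mRpS7 value, 42.6 FPKM, was above the highest mRpL12 value, 42.1 FPKM.

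Among the other abundant members, mRpL9 averaged 37.6 ± 1.33 FPKM in overexpressing and 38.03 ± 1.85 FPKM in control libraries. The small subunit genes next in order were mRpS9, mRpS16 and mRpS17, with means over all libraries of 32.7, 30.1 and 29.3 FPKM. mRpS9 shares 25.1% of its exon bases with ArgRS-m on the other strand, and the part of this sharing in its rank was not tested. The neighbours mRpS16 and mRpS17 did not differ beyond their spread. In mRpS16 overexpressing replicate 3 was lowest at 24.9 FPKM, beside 32.7 and 32.6 FPKM in the other overexpressing libraries and 29.6, 31.3 and 29.5 FPKM in the control libraries.

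At the low end, mRpL21 had 8.14, 7.58 and 8.21 FPKM in the overexpressing libraries and 9.07, 8.35 and 7.84 FPKM in the control libraries. mRpL11, whose bacterial counterpart lies at the binding site of translational GTPases, averaged 10.3 ± 0.999 FPKM in overexpressing and 10.1 ± 0.561 FPKM in control libraries. mRpL48 averaged 11.5 ± 1.20 FPKM in overexpressing and 12.5 ± 0.364 FPKM in control libraries, and shares 20.8% of its exon bases with frtz on the other strand. mRpL13 averaged 12.0 ± 1.02 FPKM in overexpressing and 12.4 ± 1.34 FPKM in control libraries, and shares 35.2% of its exon bases with CG10602 on the same strand. Of the small subunit, mRpS24 was lowest as listed, with a mean over all libraries of 8.58 FPKM. It shares 55.3% of its exon bases with TBC1d7 on the other strand, and the part of this sharing in its rank was not tested. mRpS6 followed at 13.9, mRpS28 at 14.7 and mRpS18B at 15.5 FPKM. In each of these low genes the groups overlapped.

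**Figure D3:**
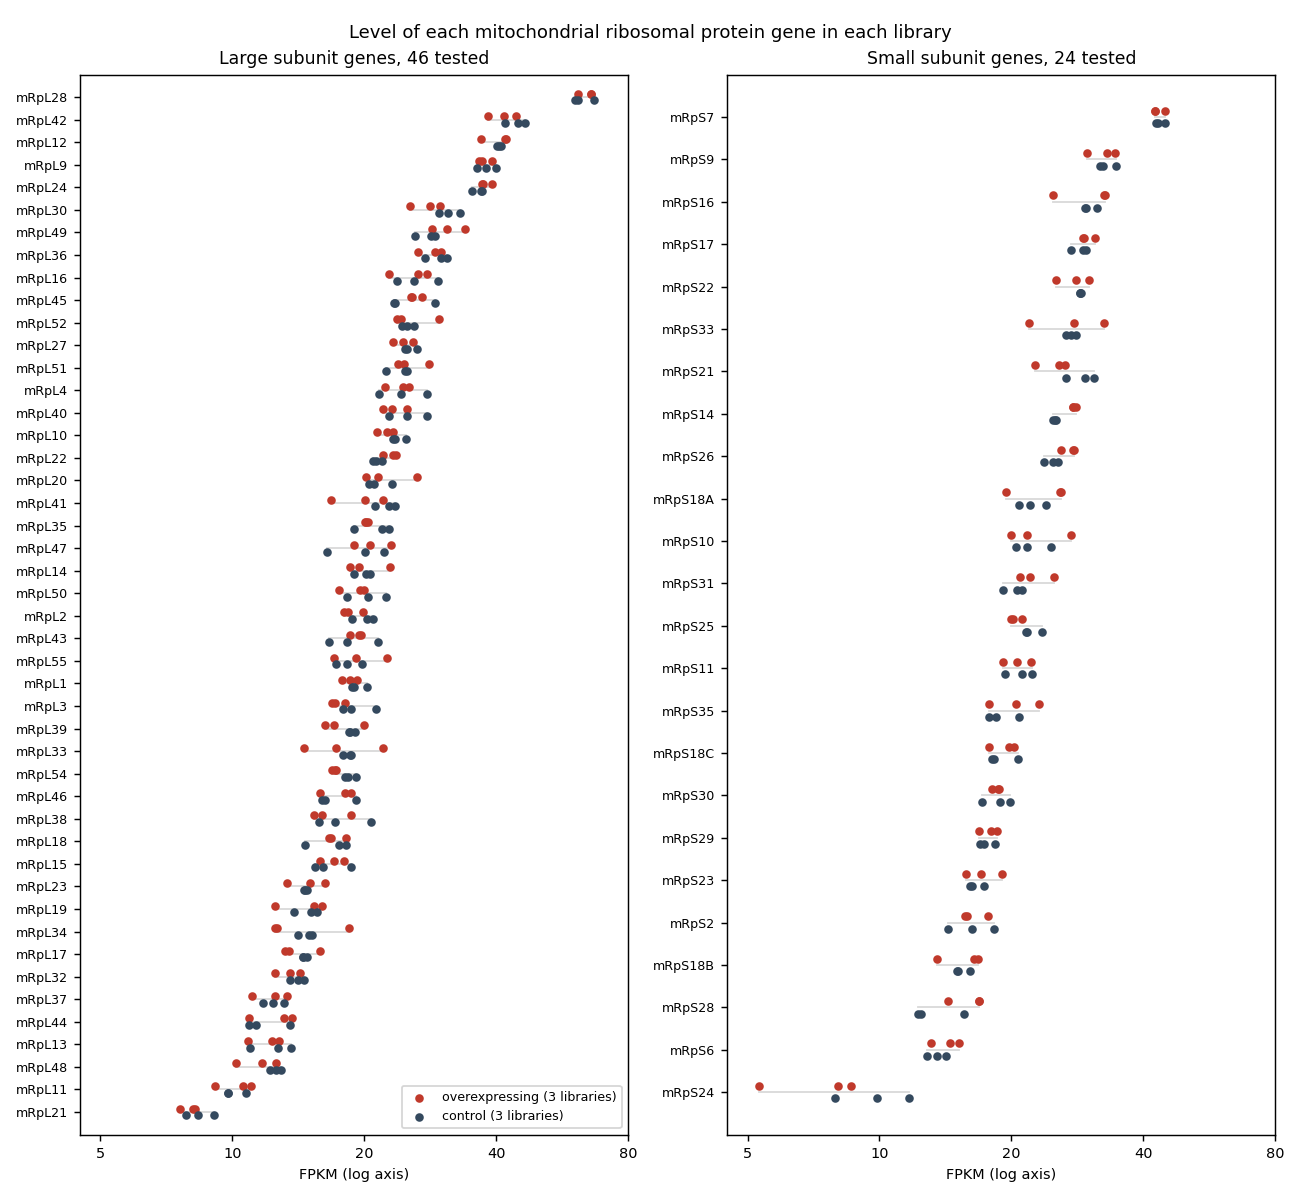
FPKM of each tested member in every library (x axis, log scale), overexpressing libraries above control libraries in each row, with genes ordered by mean level within the large subunit (left, 46 genes) and the small subunit (right, 24 genes). Most rows lie between 10 and 35 FPKM, with mRpL28 highest and mRpL21 and mRpS24 lowest.

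The 5 largest rises by estimate were mRpS28, mRpL49, mRpS31, mRpS14 and mRpS26, none of them called. mRpS28 had 16.9, 14.4 and 16.9 FPKM in the overexpressing libraries and 12.4, 12.2 and 15.6 FPKM in the control libraries, a log2 change of 0.25 ± 0.11 (SE) with a limma adjusted p of 0.325. Control replicate 3 lay within the overexpressing range, so the groups overlapped. mRpS14, a counterpart of the bacterial protein S14 of the small subunit head, had 28.2, 27.6 and 27.7 FPKM in the overexpressing libraries and 25.1, 25.3 and 24.9 FPKM in the control libraries. Here the groups did not overlap, the log2 change was 0.14 ± 0.05 (SE) and the limma adjusted p was 0.210. Over the 6 fits that leave out 1 library its log2 change stayed between 0.13 and 0.15, with adjusted p between 0.236 and 0.447. Of the exon bases of mRpS14, 32.0% are shared with Naa15-16 on the other strand.

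mRpS26, a small subunit protein of mitochondria, averaged 27.1 ± 1.05 FPKM in overexpressing and 24.7 ± 0.935 FPKM in control libraries, and its groups did not overlap (log2 change 0.13, limma adjusted p 0.342). mRpL49 and mRpS31 had log2 changes of 0.15 and 0.15 with limma adjusted p of 0.394 and 0.404, and overlapping groups in mRpS31. Without 1 library they lay between 0.09 and 0.21 for mRpL49 and between 0.08 and 0.20 for mRpS31. For mRpL49, control replicate 2 at 29.0 FPKM lay above overexpressing replicate 1 at 28.5 FPKM.

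The 5 largest falls by estimate were mRpS24, mRpS21, mRpL41, mRpL30 and mRpL3, again none of them called. mRpS24, the mitochondrial counterpart of the bacterial protein S3, had 8.63, 8.06 and 5.31 FPKM in the overexpressing libraries and 9.88, 7.92 and 11.7 FPKM in the control libraries. Its log2 change was -0.39 ± 0.18 (SE) with a limma adjusted p of 0.367, and the groups overlapped. Without 1 library the estimate lay between -0.52 and -0.20. mRpS24 shares 55.3% of its exon bases with TBC1d7 on the other strand, the largest such share of any tested member, and the strand setting of the counting was not given in the sources used here. TBC1d7 was at 4.15 ± 0.287 FPKM in overexpressing and 4.69 ± 0.431 FPKM in control libraries. The part of the overlap in the change was not tested.

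mRpS21 had 26.5, 25.7 and 22.6 FPKM in the overexpressing libraries and 30.9, 29.5 and 26.7 FPKM in the control libraries. The lowest control library was just above the highest overexpressing library, and the log2 change was -0.21 ± 0.08 (SE) with a limma adjusted p of 0.264. It shares 48.0% of its exon bases with CG8870 on the other strand, a gene at 1.39 ± 0.585 FPKM in overexpressing and 1.18 ± 0.464 FPKM in control libraries. mRpL41, mRpL30 and mRpL3 had log2 changes of -0.19, -0.17 and -0.14 with limma adjusted p of 0.399, 0.335 and 0.426. Without 1 library these changes lay between -0.28 and -0.09 for mRpL41, between -0.21 and -0.11 for mRpL30 and between -0.19 and -0.07 for mRpL3. The change nearest 0 came without overexpressing replicate 2 for mRpL41, without overexpressing replicate 1 for mRpL30 and without control replicate 2 for mRpL3. mRpL3 is the counterpart of a bacterial protein that lies close to the peptidyl-transferase centre, and it averaged 17.4 ± 0.603 FPKM in overexpressing and 19.3 ± 1.80 FPKM in control libraries.

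Counted over all members, the 3 libraries of one group lay wholly above or below the 3 of the other in 7 of 70 genes (10% of them), against a background of 20.7% of tested genes. Of these, 4 were higher in overexpressing libraries, where the background is 9.06%, and 3 were lower, where it is 11.7%. The genes higher were mRpL22, mRpL24, mRpS14 and mRpS26, and those lower were mRpL54, mRpS21 and mRpS25. Here mRpL22, mRpL24, mRpL54 and mRpS25 are named because of this count, after their values were seen. With 3 libraries against 3, the smallest p that an exact permutation test of 1 gene can give is 0.1.

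The median SD within groups on the log2(FPKM + 1) scale was 0.104 for members, against 0.102 for all tested genes and 0.0902 for the 6087 genes within the range of member levels. A member had between 57 and 1565 recovered reads per library, with a median of 307. Counting error alone gave a median SD of 0.0792 for members, so the observed SD was a median of 1.41 times the counting SD, against 1.63 times over 11810 tested genes with recovered reads.

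The genes mRpS18A, mRpS18B and mRpS18C encode relatives of the bacterial small subunit protein S18. In human mitoribosomes these relatives occupy different places, the counterpart of mRpS18A being in the large subunit. mRpS18A averaged 23.8 ± 3.75 FPKM in overexpressing and 22.3 ± 1.58 FPKM in control libraries. mRpS18C was at 19.3 ± 1.32 FPKM in overexpressing and 19.0 ± 1.44 FPKM in control libraries, and mRpS18B at 15.6 ± 1.81 FPKM in overexpressing and 15.4 ± 0.597 FPKM in control libraries. The order of the means was the same in both groups, and the log2 changes were 0.08 for mRpS18A, 0.02 for mRpS18C and 0.01 for mRpS18B. Leaving out 1 library moved them, and mRpS18A was at 0.21 without overexpressing replicate 3 and at 0.01 without overexpressing replicate 2, and mRpS18B at 0.11 without overexpressing replicate 2.

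mRpL53 encodes a large subunit protein of mitochondria and was the single member listed at 0 in all libraries. It is annotated at chr2R:13954195-13955664 (dm6, plus strand), inside a longer span of AGO1, a gene of the other strand. All of its exon bases, 100% of them, are also exon bases of CG33155 on the same strand. CG33155 itself had 31 recovered reads over the 6 libraries, with 0.201 ± 0.0421 FPKM in overexpressing and 0.249 ± 0.195 FPKM in control libraries. A value of 0 was common among such genes. Of 366 protein-coding genes with at least 90% of their exon bases shared with exons of another gene on the same strand, 308 were at 0 in every library, 84.2%. Of 115 sharing at least 90% with the other strand and under 10% with the same strand, 90 were at 0, 78.3%. Of 11692 sharing under 10% with either, 238 were at 0, 2.04%. The level of mRpL53 is therefore given only as listed at 0.

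Smaller overlaps were frequent among members. Exon bases were shared with a gene of the other strand in 41 of the 71 members, in 8 of them over 10% of the bases and in 6 over 20%. Same-strand sharing was seen in 3 members, mRpL53, mRpL13 with CG10602 (35.2%) and mRpS14 with CG32533 (3.76%), listed for this sharing after their values were seen. The 9 tested members with over 10% shared bases had a median level of 19.2 FPKM, and the other 61 had 20.2 FPKM. These are different genes, so the medians cannot show whether reads in shared bases were counted. With those 9 genes left out, the median log2 change was -0.02 for the large and 0.02 for the small subunit, an alternative chosen after the data were seen.

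The members are short genes spread over the major chromosome arms. The X chromosome holds 11 of them, 2L and 2R hold 12 each, 3L holds 15 and 3R holds 21, and none lies on chromosome 4 or Y. The median exon length was 783 nt, from 327 to 2078 nt, against 1834 nt for 11131 protein-coding genes tested, and 8 of the 71 consist of a single exon block. Level per kilobase was almost unrelated to exon length over the tested members, with Spearman's rho of -0.09 over 70 genes measured in the same libraries. The closest pair of neighbouring members, mRpL3 and mRpS30 on X, is separated by 23383 bp. Of the 11 X-linked members, 0 were called by limma (1 with an unadjusted p under 0.05, 0 by voom), 3 had groups that did not overlap (27.3%), and the median log2 change was -0.04. Of 1887 tested X-linked genes 506 had groups that did not overlap (26.8%), 389 had an unadjusted p under 0.05 (20.6%) and 92 were called, 52 of them higher and 40 lower in overexpressing libraries.

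A feature the symbol rule did not use is the arrangement of their starts. A protein-coding gene of the table starts within 1000 bp on the other strand, facing away, at 56 of 71 members, 78.9%, against 3907 of 11131 tested protein-coding genes, 35.1%. Several of these neighbours are themselves mitochondrial. ATPsynD, a subunit of ATP synthase, starts 95 bp from mRpL55. Mitofilin, a component of the complex that organises cristae, starts 192 bp from mRpL35, and HtrA2, a mitochondrial protease, starts 126 bp from mRpL11. Taz, the Drosophila tafazzin that remodels cardiolipin, starts 20 bp from mRpL18. Others have other roles, such as Prosbeta2, a proteasome subunit, 285 bp from mRpL39. These examples were chosen after their values were seen. The share of mitochondrial genes among the neighbours was not counted.

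The divergent neighbours were counted in the same way. Of 51 tested, 0 were called by limma, against 2.22% of all tested genes, and 1 by voom on recovered reads, against 3.56%. An unadjusted p under 0.05 was found in 7 (13.7%, against 15.7% of all tested genes). The median log2 change of the neighbours was -0.01, with 24 above and 27 below 0. Groups did not overlap in 14 of them, 27.5%, against 20.7% of all tested genes, and of the 14, 6 were higher and 8 lower in overexpressing libraries. Whether that share differs from the background was not tested. ATPsynD, the most abundant neighbour, was at 430 ± 16.5 FPKM in overexpressing and 434 ± 40.5 FPKM in control libraries.

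Some mitoribosomal proteins carry other symbols. tko encodes the counterpart of the decoding-site protein S12 and bonsai that of S15, both of the small subunit. CG6094 is related to a peptidyl-tRNA hydrolase that is built into the large subunit in human mitochondria. tko averaged 9.998 ± 0.430 FPKM in overexpressing and 10.1 ± 0.383 FPKM in control libraries, and bonsai 22.1 ± 3.09 FPKM in overexpressing and 20.4 ± 2.41 FPKM in control libraries. CG6094 averaged 14.6 ± 0.345 FPKM in overexpressing and 16.6 ± 1.64 FPKM in control libraries, with a log2 change of -0.17 ± 0.08 (SE) and a limma adjusted p of 0.355. All 3 had overlapping groups, and none was called.

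Among the RNA components of the mitoribosome, the small subunit rRNA was called and the large subunit rRNA was not. RNA and protein components were not tested against each other. mt:srRNA, the small subunit rRNA, had 483, 488 and 388 FPKM in the overexpressing libraries and 303, 252 and 248 FPKM in the control libraries. It rose to 453 ± 56.5 FPKM in overexpressing libraries, against 267 ± 30.8 FPKM in controls (SD, n = 3 each), a log2 change of 0.76 ± 0.11 (SE) with a limma adjusted p of 0.0191. The groups did not overlap. The call was kept in 3 of the 6 fits that leave out 1 library, those without overexpressing replicate 2, overexpressing replicate 3 or control replicate 1, with adjusted p between 0.0233 and 0.0884, and the log2 change stayed between 0.70 and 0.86. limma-voom on recovered reads gave an adjusted p of 0.0016.

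mt:lrRNA, the large subunit rRNA, did not pass the test. It had 36058, 41663 and 35107 FPKM in the overexpressing libraries and 42870, 39820 and 35986 FPKM in the control libraries, and the groups overlapped. Its log2 change was -0.07 with a 95% interval from -0.33 to 0.18 and a limma adjusted p of 0.811. The difference between the changes of the rRNAs was not tested. Libraries were made from poly(A)-selected RNA, so rRNA values depend on how much of each rRNA was carried through that selection, which was not measured. Of 24 tested mitochondrial genome transcripts 1 was called higher and 1 lower, where 2.22% of all tested genes were called. Their median log2 change was 0.03. At an unadjusted p under 0.05 there were 8 (33.3%), against 15.7% of all tested genes. Voom, which had no value for mt:lrRNA, called 3, where the background was 3.56%. The median SD within groups was 0.254 for these transcripts, against 0.102 for all tested genes. The transcript called lower, mt:ND4, a subunit of complex I, was at 634 ± 50.6 FPKM in overexpressing and 880 ± 14.4 FPKM in control libraries (log2 change -0.47 ± 0.07, limma adjusted p 0.0172). That call was kept in 1 of the 6 fits that leave out 1 library, the one without overexpressing replicate 2.

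**Figure D4:**
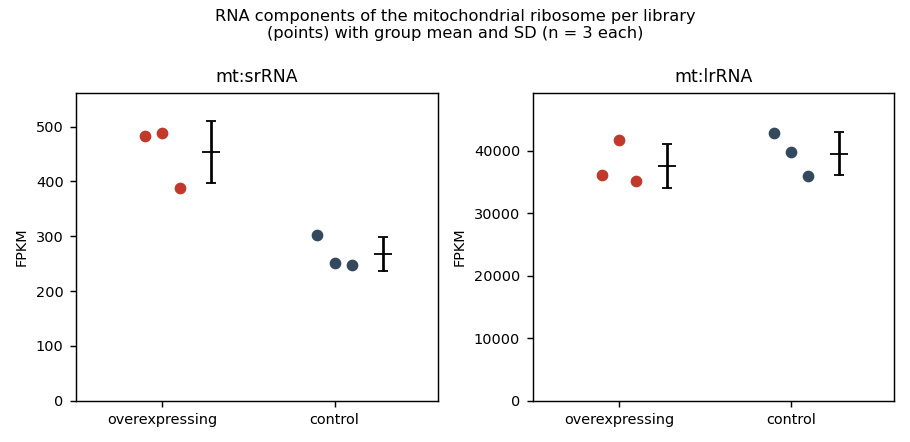
FPKM of the small (left) and large (right) mitochondrial rRNA in each library (y axes from 0; points, libraries; bars, group mean and SD, n = 3 each). The overexpressing points of mt:srRNA, from 388 to 488 FPKM, all lie above the control points, from 248 to 303 FPKM, whereas the points of mt:lrRNA overlap.

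Other genes of mitochondrial translation were counted by list. Counts in this and the following lists stand against backgrounds of 2.22% by limma, 15.7% at an unadjusted p under 0.05 and 3.56% by voom. In the short lists, 0 calls is close to the limma share. Translation factors had 0 called of 12 tested (2 with an unadjusted p under 0.05, 0 by voom) and a median log2 change of 0.01. mEFTs, the exchange factor of elongation factor Tu, averaged 112 ± 6.09 FPKM in overexpressing and 109 ± 4.42 FPKM in control libraries. mEFTu1, elongation factor Tu itself, was at 60.0 ± 2.22 FPKM in overexpressing and 65.6 ± 1.13 FPKM in control libraries, with groups that did not overlap and a limma adjusted p of 0.282. Mitochondrial aminoacyl-tRNA synthetases, which charge tRNAs, had 0 called of 15 tested (0 unadjusted, 0 by voom) and a median of -0.01. TrpRS-m was at 92.5 ± 6.46 FPKM in overexpressing and 93.2 ± 2.56 FPKM in control libraries.

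Genes for mitochondrial transcription, RNA processing and ribosome assembly had 0 called of 18 tested (2 unadjusted, 0 by voom), with a median of -0.05. Their most abundant gene, scu, a subunit of mitochondrial RNase P, averaged 120 ± 3.90 FPKM in overexpressing and 131 ± 4.41 FPKM in control libraries, with groups that did not overlap and a limma adjusted p of 0.311. TFAM, which packages mitochondrial DNA, was at 29.8 ± 2.34 FPKM in overexpressing and 32.1 ± 1.16 FPKM in control libraries. Genes of mitochondrial DNA maintenance had 0 called of 5 tested (0 unadjusted, 0 by voom) and a median of 0.12.

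Larger sets of related genes gave the following counts. Nuclear subunits of oxidative phosphorylation, among which are partners of the proteins that the mitoribosome makes, had 0 called of 86 tested (5 unadjusted, 1 by voom). Their median log2 change was 0.03, with 62 above and 24 below 0. Cytosolic ribosomal proteins had 0 called of 87 tested (3 unadjusted, 0 by voom), with a median of -0.05 and 16 above and 71 below 0. Genes of cytosolic ribosome biogenesis had 0 called of 16 tested (2 unadjusted, 0 by voom) and a median of -0.05. The mitoribosomal members had 32 above and 38 below 0, and the difference between lists was not tested.

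Mitochondrial chaperones, proteases and stress genes had 0 called of 15 tested (0 unadjusted, 0 by voom) and a median of 0.03. Hsp60A, the mitochondrial chaperonin, was at 123 ± 3.12 FPKM in overexpressing and 129 ± 3.68 FPKM in control libraries. Among 19 tested regulators of ribosome and mitochondrial genes (3 unadjusted, 1 by voom; median 0.03), Thor was called. It encodes 4E-BP, a repressor of cap-dependent translation in the cytosol. Thor had 642, 433 and 605 FPKM in the overexpressing libraries and 303, 345 and 300.4 FPKM in the control libraries, with a log2 change of 0.80 ± 0.14 (SE) and a limma adjusted p of 0.0369. Its call was kept in 1 of the 6 fits that leave out 1 library, without overexpressing replicate 2, whose value was the lowest of its group. The call was also lost with no filter on low values and without X-linked genes.

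**Figure D5:**
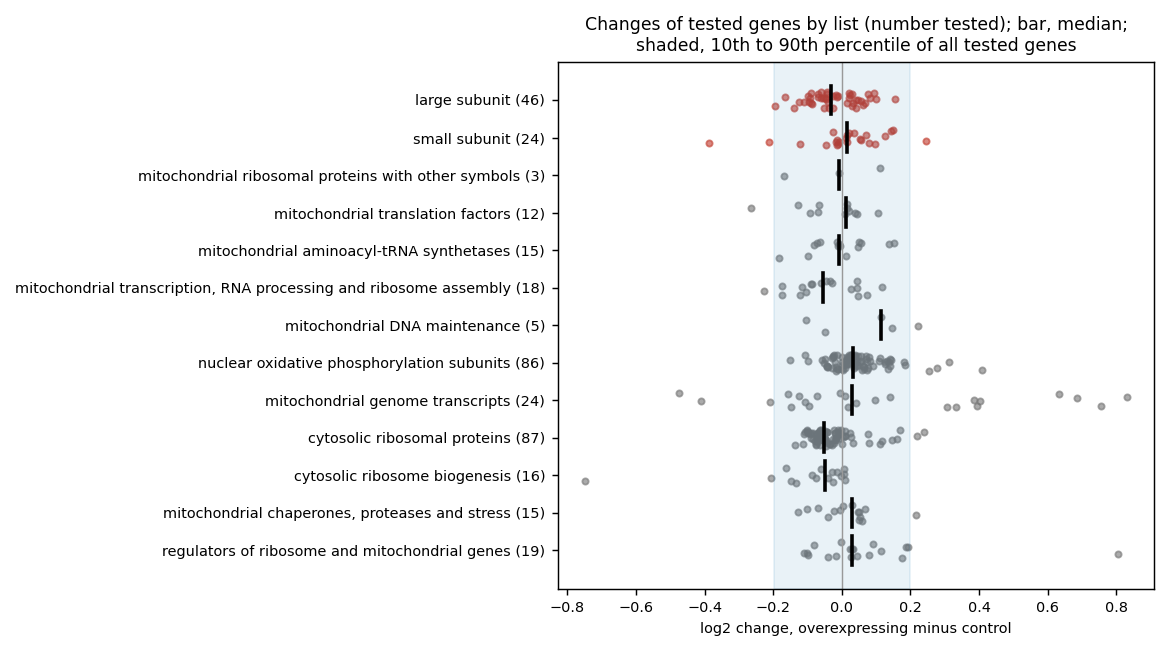
Log2 change (x axis, log2(FPKM + 1) scale, overexpressing minus control) of every tested gene in the members (red) and in 11 related lists (grey), with the number tested in brackets, a bar at each median and shading from the 10th to the 90th percentile of all tested genes. The median is -0.03 for the large subunit and 0.02 for the small subunit, and the points above 0.6 are mitochondrial genome transcripts and Thor.

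Tissue markers moved unequally between the groups. Fat body markers summed to between 188 and 247 FPKM in overexpressing and between 262 and 317 FPKM in control libraries. Of these, 2 of 7 tested, fat-spondin and Apoltp, were called lower (4 unadjusted, 2 by voom). Of 8 haemocyte markers NimC1 was called lower (3 unadjusted, 1 by voom). That list summed to between 97.8 and 114.3 FPKM in overexpressing and between 114.1 and 122.8 FPKM in control libraries, ranges that just overlapped. Of 9 genes matched to the female list, only the yolk protein gene Yp3 reached the filter in these males. Yp3 was called lower, at 9.04 ± 1.49 FPKM in overexpressing and 32.4 ± 1.04 FPKM in control libraries. Markers of muscle, midgut, testis, accessory gland, neuron and head, and the male markers had 0 called by limma of 10, 11, 12, 9, 9 and 4 tested, with 0, 3, 1, 2, 2 and 0 at an unadjusted p under 0.05. Voom called 1 of those midgut markers and 0 in the muscle, testis, accessory gland, neuron and head, and male lists. Neuron and head markers summed to between 2870 and 3211 FPKM in overexpressing and between 2762 and 2811 FPKM in control libraries. Of these, 9 changed above 0 and 0 below. Their groups did not overlap in 4 of 9 (44.4%), against 20.7% of all tested genes. Muscle markers had 9 above and 1 below 0. Sums of the muscle, midgut, testis, accessory gland and male lists overlapped between groups. No member was called beside these shifts, and their part in the member values was not tested.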

How the data were processed

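Poly-T beads were used to select mRNA, per the labels' protocols, which also name paired-end sequencing, alignment by HISAT2 2.0.5, counting by featureCounts 1.5.0-p3 and testing by DESeq2. The submitters' processing notes name dm6 as build. Values deposited by the authors are FPKM, 1 per gene in each library. How counts became FPKM, and the strand setting, were not given in the sources used here.

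Symbols (17252 of 17558 identifiers), coordinates and exon lengths came from the Ensembl dm6 annotation. FPKM times exon length and 1 factor per library gave whole reads (tolerance 0.01) for 15276 of 15918 genes above 0, or 96.0%, and for all 70 tested members. Intervals and counting SDs cover counting error or library spread only.

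Genes reaching 1 FPKM in 3 or more libraries were tested with limma 3.58.1 (R 4.3.3; eBayes with a trend) on log2(FPKM + 1), a scale that understates changes of low genes. The test was two-sided over all 12326 genes, adjusted by Benjamini-Hochberg with calls under 0.05. A run on simulated data checked the code only, and required calls only at changes far larger than those of the members. No test was run over a list. limma-voom on the recovered reads called 422 genes.

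Members and lists were chosen with earlier results of these data known. Named members were the 5 largest rises and falls, the 4 highest and 4 lowest of each subunit, those below the filter, the mRpS18 genes, tko and bonsai. From each other list came called genes (up to 6) or the most abundant. Alternatives were the pseudocount (0.1), no filter, rescaling all libraries to the same FPKM sum, a median shift, robust eBayes, voom, a replicate block, leaving out each library or X-linked genes, and subunit membership.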

Additional observations from a re-analysis of the deposited data

How the results depend on the processing

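Calls over all tested genes moved with the fit, from 274 to 422 with voom on recovered reads, 110 with a replicate block, 123 without X-linked genes, and between 70 and 431 when 1 library was left out; the cause was not tested. Same-numbered libraries did not deviate together (correlations of -0.053, -0.185 and 0.033), so the block rests on shared numbers only. With the block, mt:ND4 and Thor were no longer called and mt:srRNA was. Member calls were 0 for both subunits in each of the 14 alternative fits, of which the fit without X-linked genes left out the 11 X-linked members. The median log2 change ranged from -0.0422 to -0.0147 in the large and from -0.0149 to 0.0363 in the small subunit when 1 library was left out. It was -0.0109 in the large subunit after rescaling all libraries to the same FPKM sum, which moved the median of all genes from 0.00 to 0.02. With mRpS18A and mRpS30 counted in the large subunit, the medians were -0.0262 and 0.0151. Of 360 values of 26 named members under the alternatives, 27 changed sign, in 9 members with changes of at most 0.05 in the main test, and 5 moved by over 1 SE. Depth limits the members with few reads most, down to 57 in a library.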
